A study of Mus musculus with 4 samples.

Results

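The 8 genes described here encode the enzymes of the primary (azurophil) granule of neutrophils and the proteins that activate, store and restrain them: Elane, Prtn3, Ctsg, Mpo, Ctsc, Srgn, Serpinb1a and Slpi. They were chosen by name for these roles, with earlier results of these data known. Each was found once among the 24497 features of the deposited table. All 8 were among the 11866 features with at least 1 TPM (a transcript's share of the library after correction for its length) in at least 2 of the 4 libraries. The libraries were made from poly(A) RNA of mouse spleen cells carrying MLL-AF9 acute myeloid leukaemia, in which donor marrow cells expressing the MLL-AF9 fusion gene give rise to the disease. Sorted CD45.2+ leukaemic cells of primary animals had been given to recipients irradiated with 320 rads, which were then treated every other day over 20 days by intraperitoneal injection. The PBS group (2 libraries) received vehicle, and the CS1 group (2 libraries) received 5 mg/kg of CS1, which the labels call an inhibitor of FTO, an enzyme that removes methyl groups from RNA. All groups therefore share the fusion, the transplantation, the irradiation and the bead enrichment for CD45.2, and the labels give neither strain nor age of the recipients. A label of CS1 replicate 2 names its treatment as CS2, against CS1 in the title, and the title was followed. The labels do not say that replicates came from separate animals, so the p-values take in only how far these libraries spread, which may be technical.

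Promyelocytes, the precursors that fill the primary granules, transcribe granule enzyme genes in a short window of granulocyte development, and the proteins are then kept for the life of the cell. Neutrophil elastase, proteinase 3 and cathepsin G are related serine proteases that are made as inactive precursors. The dipeptidyl peptidase cathepsin C removes an N-terminal dipeptide to activate them, and the proteoglycan serglycin holds them in the granule. Myeloperoxidase, a haem enzyme of the same granule, makes hypochlorous acid from hydrogen peroxide and chloride. Serpin B1 in the cytosol blocks all these serine proteases when they leave the granule, and the secreted inhibitor SLPI blocks elastase and cathepsin G but not proteinase 3. Most of these genes are also read in monocyte precursors and in leukaemias with a granulocyte-monocyte phenotype.

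Replicates lay close together and the groups stood apart across the transcriptome. Column sums were between 977973 and 986345, the read depth behind the values is unknown, and Pearson's r across tested features, which are not independent replicates, was 0.993 between the PBS libraries, 0.991 between the CS1 libraries and 0.958 across groups. With this spread, 67.0% of tested features passed limma's moderated test on log2(TPM + 1) at a Benjamini-Hochberg adjusted p under 0.05, 35.3% of all tested being higher and 31.6% lower in CS1. Among the 1788 features averaging at least 100 TPM, 84.4% passed. Fto itself stood at 29.5 and 30.9 TPM in PBS and 32.0 and 30.9 TPM in CS1 (adjusted p = 0.334). Ptprc, which encodes the CD45 antigen used for the enrichment, was at 583 and 597 TPM in PBS and fell to 323 and 315 TPM in CS1 (log2 fold change -0.89 ± 0.02, SE, adjusted p = 4.66e-06).

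All 4 enzyme genes and the serpin gene were higher in CS1, while the activator, the proteoglycan and the secreted inhibitor were lower. All 8 members thus passed the test, 5 higher (background 35.3%) and 3 lower (background 31.6%), and the groups did not overlap for any of them. Passing alone says little about the members, since 84.4% of tested features also had groups that did not overlap, as had 92.5% of those averaging at least 100 TPM. The sizes differed more from the background: the 4 enzyme genes rose by at least 1 on the log2 scale, against 5.02% of tested features and 2.01% of those averaging at least 100 TPM. The median log2 fold change was 1.14 over the 8 members, 0.04 over all tested features and -0.10 over features averaging at least 100 TPM. The members were chosen with earlier results of these data known, so these shares describe the members and are not a test of the group.

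**Figure D1:**
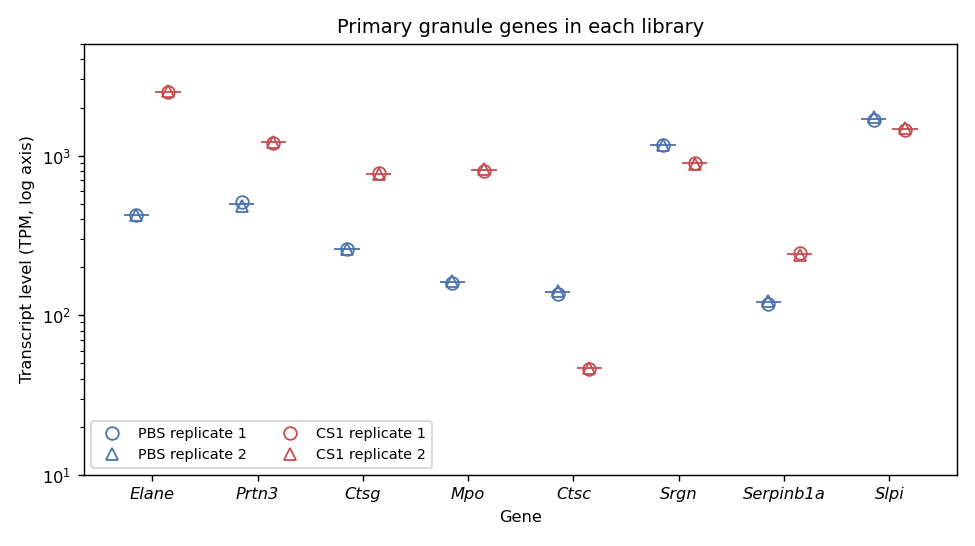
Transcript level in TPM on a log axis (vertical) of the 8 genes (horizontal) in each of the 4 libraries, with a short line at each group's mean. Replicates nearly coincide, Elane lies highest in CS1 at 2490.1 and 2533 TPM, and Ctsc lies lowest there at 45.8 and 46.9 TPM.

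Elane, which encodes neutrophil elastase, showed the largest change of the 8. It was measured at 424 and 427 TPM in the PBS libraries and at 2490.1 and 2533 TPM in the CS1 libraries. Both CS1 values lay far above both PBS values, and the replicates of a group differed by at most 0.02 on the log2 scale. The mean rose from 425 ± 2.34 to 2512 ± 30.3 TPM (SD, n = 2 each), a ratio of 5.91, with a log2 fold change of 2.56 ± 0.02 (SE, limma adjusted p = 2.73e-07). No other feature averaging at least 100 TPM rose by more, and among all 11866 tested features the rise ranked 34. By level, Elane moved from place 367 and 360 of 24497 features in PBS to place 48 and 50 in CS1.

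Prtn3, which encodes proteinase 3, a close relative of elastase and the autoantigen of ANCA vasculitis, rose less. Its levels were 509 and 486 TPM in PBS and 1205 and 1217 TPM in CS1, a ratio of means of 2.43 (log2 fold change 1.28 ± 0.03, SE, adjusted p = 2.80e-06). In PBS it was the more abundant of the pair, with an Elane to Prtn3 ratio of 0.831 and 0.877, and in CS1 the order was the other way round, with ratios of 2.07 and 2.08. Ctsg, which encodes cathepsin G, a serine protease with chymotrypsin-like specificity, stood at 259 and 261 TPM in PBS and 773 and 765 TPM in CS1. Its mean rose 2.96 times (log2 fold change 1.56 ± 0.02, SE, adjusted p = 8.23e-07). The 3 serine protease genes therefore rose together but by unequal amounts, with the order Elane, Ctsg, Prtn3.

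Mpo, which encodes myeloperoxidase, was the least abundant of the 4 enzyme genes in PBS and changed almost as much as Elane. It was at 159.5 and 163 TPM in PBS and at 805 and 821 TPM in CS1. The CS1 libraries were both higher, by a ratio of means of 5.04 (log2 fold change 2.33 ± 0.02, SE, adjusted p = 4.63e-07). Among features averaging at least 100 TPM, only Elane and Camp rose by more. In CS1 Mpo lay just above Ctsg, at 1.06 times its mean, whereas in PBS Ctsg was at 1.61 times the mean of Mpo.

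Summed over Elane, Prtn3, Ctsg and Mpo, the enzyme transcripts took 1351 and 1338 TPM in PBS and 5273 and 5336 TPM in CS1, or 0.137% and 0.136% of the library against 0.539% and 0.545%. The makeup of this sum also shifted. Elane went from 31.6% ± 0.424 to 47.4% ± 0.212 of it, and Mpo from 12.0% ± 0.283 to 15.4% ± 0.0707 (SD, n = 2 each). Prtn3 went from 37.0% ± 0.919 to 22.9% ± 0.0707 and Ctsg from 19.3% ± 0.283 to 14.5% ± 0.283. For each of these shares the groups did not overlap, and no test was run on them.

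**Figure D2:**
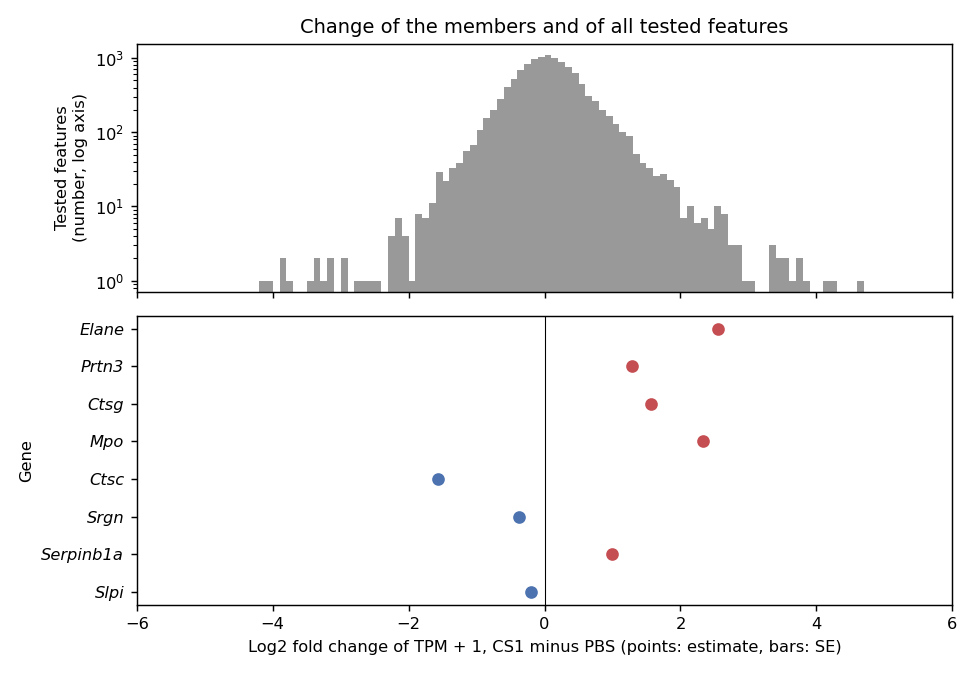
Upper panel: number of tested features (log axis) by log2 fold change of TPM + 1, CS1 minus PBS; lower panel: the same quantity for each of the 8 genes, with SE bars that are mostly smaller than the points. Elane at 2.56 and Mpo at 2.33 lie in the right tail of the 11866 features, and Srgn at -0.38 and Slpi at -0.21 lie near the centre.

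Elane and Prtn3 are neighbours in tandem on the plus strand of chromosome 10 (GENCODE M21 coordinates, build GRCm38, which is also mm10: Elane 79886247 to 79888215 with 5 exons, Prtn3 79874476 to 79883174), and their RefSeq starts lie 6645 bases apart. Ctsg lies on chromosome 14 (56099881 to 56102574, minus strand) and Mpo on chromosome 11 (87793581 to 87804413, plus strand). Exons of Prtn3 share 159 bases with Plppr3 on the opposite strand, and exons of Mpo share 512 bases with the antisense gene Gm11505, which was not among the tested features. The sources used here do not state whether reads were counted by strand, so both values are uncertain to that extent. Sequences upstream of the serine protease genes are shown because these genes rose together, and that of Ctsc because it fell. They are from RefSeq (GRCm38.p6), 5′ to 3′ on the gene's own strand, and capitals mark matches on either strand to GAGGAA (PU.1), CAACNG (MYB), TGTGGT (RUNX) or TTGCNNAA (C/EBP). The Elane and Prtn3 stretches run from 165 to 46 bases before the RefSeq start, at chr10:79886147-79886266 and chr10:79879502-79879621, and their last 20 and 8 bases fall in an exon of GENCODE's longer models. Those of Ctsg and Ctsc are the 250 bases before the start, at chr14:56102575-56102824 (minus strand) and chr7:88277835-88278084 (plus strand).
Elane: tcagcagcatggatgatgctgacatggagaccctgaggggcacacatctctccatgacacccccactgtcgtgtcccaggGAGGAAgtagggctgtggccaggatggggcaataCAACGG
Prtn3: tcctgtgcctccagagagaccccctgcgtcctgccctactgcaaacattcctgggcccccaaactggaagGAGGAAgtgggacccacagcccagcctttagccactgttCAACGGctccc
Ctsg: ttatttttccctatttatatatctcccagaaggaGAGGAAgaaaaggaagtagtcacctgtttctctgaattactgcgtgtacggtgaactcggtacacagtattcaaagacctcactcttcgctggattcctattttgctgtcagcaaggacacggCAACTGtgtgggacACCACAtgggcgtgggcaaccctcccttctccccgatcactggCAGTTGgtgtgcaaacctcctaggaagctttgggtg
Ctsc: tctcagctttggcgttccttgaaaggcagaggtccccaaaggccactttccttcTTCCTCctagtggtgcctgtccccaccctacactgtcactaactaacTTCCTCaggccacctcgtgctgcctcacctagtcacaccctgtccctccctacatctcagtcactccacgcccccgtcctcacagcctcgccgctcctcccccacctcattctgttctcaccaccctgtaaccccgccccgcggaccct

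The upstream stretches of Elane and Prtn3 carried the same pair of words in the same order and on the same strand. In Elane GAGGAA began 85 bases before the start and CAACGG 51 bases before it, 34 bases apart. In Prtn3 they began 95 and 56 bases before the start, 39 bases apart. The stretch of Ctsg held GAGGAA at 216 bases before the start and CAACTG at 93, with a further MYB word and a RUNX word on the opposite strand. The Ctsc stretch held the PU.1 word on the opposite strand at 196 and 149 bases before the start and no MYB word. Windows of 300 bases were available for 7 of the 8 members, with 250 bases before the start; Serpinb1a is the eighth. The PU.1 word was in 5 of the 7 genes' windows, including all 4 enzymes, and in 28.3% of all 32851 windows of this length. The MYB word was in 4 of 7, against 35.0% of all windows, and 9.79% of all windows held both words. The 4 were 3 of the 4 enzymes, Elane, Prtn3 and Ctsg, and also Srgn, which was lower in CS1. Mpo, which was higher in CS1, had no MYB word in its window. Of the 250 bases before its RefSeq start, 203 fall in a GENCODE exon, so little sequence before the longer GENCODE model was searched. The RUNX word was in 2 of 7, Ctsg and Srgn (16.8% of all windows) and the C/EBP word in 1 of 7, Slpi (10.8%). Srgn had 2 windows and was counted if either held a word, whereas the shares count each window. Its RUNX word was in 1 of its windows only, in which 174 of the 250 bases before the start fall in a GENCODE exon. Such matches describe letters only and are not shown to be binding sites.

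Transcription factors of granulocyte and progenitor genes moved in both directions. Of 15 tested regulators in a list that included Myb, Spi1, Runx1 and the C/EBP genes, 6 were higher (background 35.3%), 7 lower (background 31.6%) and 2 not past the test, with a median log2 fold change of -0.26. The higher share was near that of all tested features. Myb, a factor of haematopoietic progenitors, rose from 89.4 and 89.5 to 215 and 214 TPM (log2 fold change 1.25, adjusted p = 2.44e-06). Gfi1, a repressor needed for granulocyte development, rose from 9.76 and 12.7 to 62.0 and 63.2 TPM (adjusted p = 2.26e-05). Rara, the retinoic acid receptor gene, fell from 221 and 215 to 140.1 and 141 TPM (adjusted p = 1.59e-05). Outside the naming rule and picked for the printed motifs, Spi1, which encodes PU.1, fell from 864 and 834 to 704.5 and 710 TPM (adjusted p = 2.39e-04). Also named after its values were seen, Cebpe, a factor of late granulocyte maturation, rose from 24.3 and 27.8 to 70.6 and 72.2 TPM (adjusted p = 2.37e-05). Other C/EBP genes went the other way. Cebpb fell from 944 and 906 to 609 and 581 TPM (adjusted p = 2.94e-05), and Cebpd fell by 0.30 on the log2 scale (adjusted p = 0.00132). Runx1 and its partner gene Cbfb fell by 0.36 and 0.49 (adjusted p = 8.95e-04 and 5.16e-04). Cebpa and Gfi1b missed the threshold (adjusted p = 0.112 and 0.0878), Cebpa with 165 and 156 TPM in PBS against 174 and 166 TPM in CS1.

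Around Elane and Prtn3, tested genes were higher more often than lower, mostly by small amounts, and around the other members the picture was mixed. Within 100 kb of the GENCODE start of any member lay 28 other tested genes, with a median log2 fold change of 0.28. Of these, 14 were higher (background 35.3%), 6 lower (background 31.6%) and 8 not past the test. Of the 14 tested genes near Elane, Prtn3 included, 10 were higher (background 35.3%) and Ptbp1 and Arid3a lower (background 31.6%). Elsewhere, 3 of 4 near Mpo, 1 of 2 near Ctsg and 1 of 4 near Srgn were higher (background 35.3%). Neither Serpinb1a nor Slpi had a higher neighbour. Lower were 1 near Mpo, 2 near Srgn and 1 near Slpi (background 31.6%). R3hdm4 and Tmem259 had log2 fold changes of 0.42 and 0.45, and Arid3a, an AT-rich DNA-binding factor, fell by 0.41 on the log2 scale. Prss57, which encodes neutrophil serine protease 4, lies 95286 bases from Elane and is named after its values were seen, rose from 9.94 and 11.6 to 19.8 and 20.2 TPM (0.84, adjusted p = 3.78e-04). Cfd, the complement factor D gene 4606 bases from Elane, named after its values were seen, was barely detected, at means of 0.285 TPM in PBS and 1.62 TPM in CS1.

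Beside Ctsg, 17301 bases away, lay Mcpt8, a granule serine protease gene known from basophils. It rose from 8.05 and 6.85 to 52.4 and 49.4 TPM (log2 fold change 2.62 ± 0.08, SE, adjusted p = 6.59e-06). The other tested neighbour of Ctsg, Gm5801, had a log2 fold change of 0.07 (adjusted p = 0.137), and passed under quantile normalization (0.16, adjusted p = 0.0117) and when rescaled without features of 1000 TPM or more (0.14, adjusted p = 0.0158). Near Mpo, Mks1 and the entry of the microRNA gene Mir142b rose by 0.75 and 1.05, and Supt4a fell by 0.18. Mir142b lies within Mir142hg, a long RNA gene on the opposite strand that is not listed, and Mir142 was at 0.01 TPM in every library. Whether the reads of Mir142b came from the microRNA or from a longer poly(A) transcript was not tested. Near Srgn, Ddx21 and Vps26a fell by 0.52 and 0.38. Supv3l1 had a log2 fold change of 0.16 (adjusted p = 0.0426), a call lost in 8 of the 13 alternatives, each left-out library among them. Near Slpi, Dbndd2 fell by 0.53, a call lost without the filter on low values (adjusted p = 0.0637), while Sys1 (0.06) and Mir7678 (1.81) did not pass. Wrnip1, the tested neighbour of Serpinb1a, did not pass (-0.05), and no gene near Ctsc was tested.

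**Figure D3:**
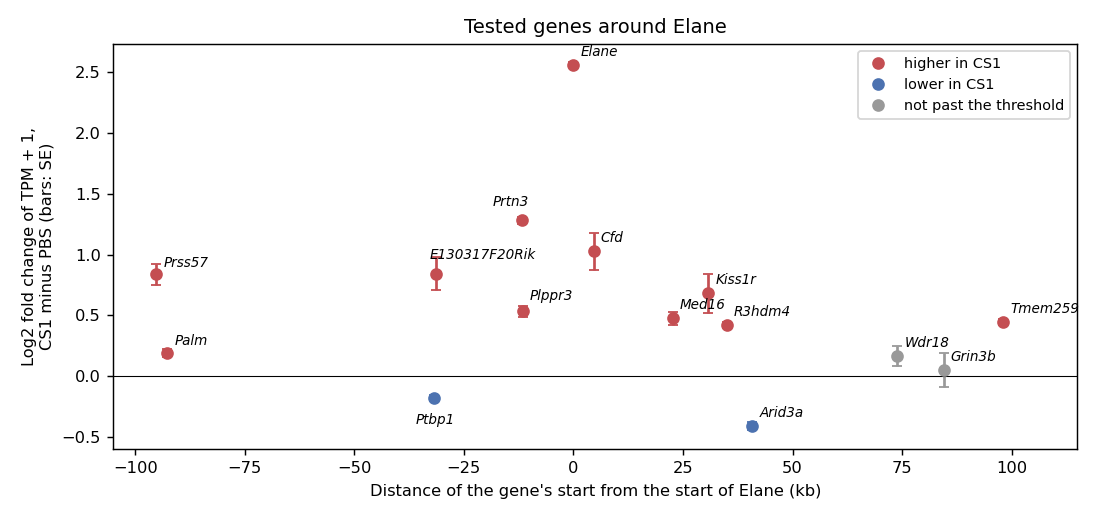
Log2 fold change of TPM + 1, CS1 minus PBS (vertical, bars are SE), of Elane and the 14 tested genes whose GENCODE start lies within 100 kb of it, by distance in kb (horizontal). Elane at 2.56 and Prtn3 at 1.28 stand above their neighbours, and Ptbp1 and Arid3a lie below 0.

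Ctsc, whose product activates the 3 serine proteases, moved against its substrates. It was at 137 and 141 TPM in PBS and at 45.8 and 46.9 TPM in CS1, so both CS1 libraries were lower. The mean fell from 139 ± 3.03 to 46.4 ± 0.778 TPM (SD, n = 2 each), with PBS 2.99 times as high as CS1 (log2 fold change -1.56 ± 0.03, SE, adjusted p = 2.76e-06). Only 2.44% of tested features were lower by at least 1 on the log2 scale, and the fall of Ctsc ranked 72 of 11866. Ctsc lies on chromosome 7 (88278085 to 88310888, plus strand), and no annotated gene shares its exon bases. Within libraries, the Elane to Ctsc ratio went from 3.10 and 3.03 to 54.4 and 54.0, and the Mpo to Ctsc ratio from 1.17 and 1.16 to 17.6 and 17.5. Across the 4 enzyme genes the ratio to Ctsc was 7.28 to 17.7 times as high in CS1 as in PBS.

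Srgn, which encodes serglycin, was abundant in all libraries and changed little. It stood at 1166 and 1165 TPM in PBS and at 903 and 890.4 TPM in CS1, with the CS1 libraries lower (log2 fold change -0.38 ± 0.02, SE, adjusted p = 2.74e-05). In absolute size, 41.2% of tested features changed by more. In PBS its level was above that of every enzyme gene, and in CS1 it was below Elane and Prtn3. The Elane to Srgn ratio went from 0.363 and 0.366 to 2.76 and 2.84.

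Genes for the glycosaminoglycan chains that serglycin carries had a median log2 fold change of -0.24, against 0.04 over all tested features. Of 14 tested genes, Xylt2 and Chst11 were higher (background 35.3%), 8 were lower (background 31.6%) and 4 did not pass the test. Xylt1 and Xylt2 both encode enzymes that start the chains. Xylt1 fell from 52.8 and 52.7 to 29.1 and 28.2 TPM, and Xylt2 rose from 23.9 and 23.8 to 27.1 and 28.2 TPM (adjusted p = 0.0125). Chsy1, a chondroitin synthase, and Ext1, a heparan sulphate polymerase, fell by 0.83 and 0.96 on the log2 scale (adjusted p = 2.55e-05 and 7.03e-05).

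The inhibitor genes moved in opposite directions. Serpinb1a, the mouse counterpart of the human elastase inhibitor gene SERPINB1, was at 117 and 124 TPM in PBS and at 243 and 238 TPM in CS1. Both CS1 values were higher, with a ratio of means of 2.00 (log2 fold change 0.99 ± 0.03, SE, adjusted p = 7.08e-06). Its close copies Serpinb1b and Serpinb1c were listed between 0.01 and 0.1 TPM in every library, 0.01 being the lowest value in the table, and reads that the copies share could have been assigned to any of them. Slpi, the secreted leukocyte peptidase inhibitor, was the most abundant member in PBS, at 1666 and 1734 TPM, and was at 1454 and 1495 TPM in CS1. The CS1 libraries were lower, but the shift was small (log2 fold change -0.21 ± 0.03, SE, adjusted p = 0.0011), and 64.7% of tested features changed by more. Without the filter on low values, which adds features of low expression to the fit, Slpi did not pass (adjusted p = 0.0603).

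Because Slpi is so much more abundant than Serpinb1a, the sum of both inhibitor transcripts stayed near the same level, at 1783 and 1857 TPM in PBS and 1697 and 1733 TPM in CS1. The sum of Elane, Prtn3 and Ctsg was 1192 and 1174 TPM in PBS and 4468 and 4515 TPM in CS1. The protease to inhibitor ratio was therefore 0.668 and 0.632 in PBS and 2.63 and 2.60 in CS1. These are ratios of transcript sums and not of active proteins, and SLPI is not an inhibitor of proteinase 3, whose transcript is in the sum. The Slpi to Serpinb1a ratio went from 14.2 and 14.0 to 5.97 and 6.27.

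The size of the shift depended on the enzyme and on the inhibitor. Against Serpinb1a, which itself rose, the ratio was 2.95 times as high in CS1 for Elane, 2.52 for Mpo, 1.48 for Ctsg and 1.21 for Prtn3. The Prtn3 to Serpinb1a ratio, 4.34 and 3.94 in PBS and 4.95 and 5.11 in CS1, changed least of the 16 ratios formed. Against Slpi the 4 enzyme genes had ratios 2.80 to 6.81 times as high in CS1. A ratio within a library does not depend on how the libraries were scaled to each other.

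**Figure D4:**
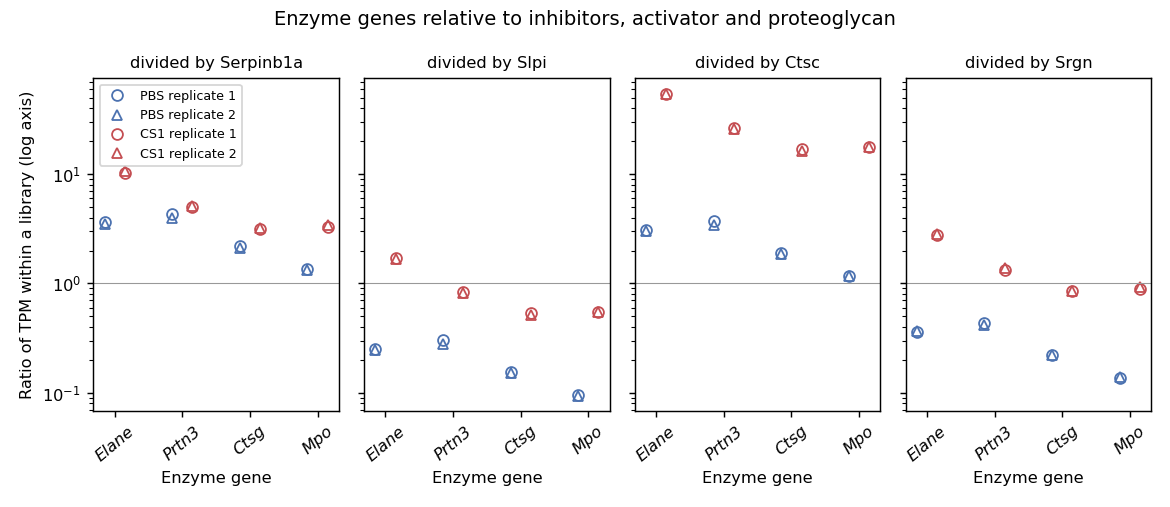
Ratio of TPM within each library (vertical, log axis) of the 4 enzyme genes (horizontal) to Serpinb1a, Slpi, Ctsc and Srgn (panels), with 1 point per library and a line at 1. All CS1 points lie above the PBS points for the same ratio; the gap is widest against Ctsc, up to 17.7 times, and narrowest for Prtn3 against Serpinb1a, 1.21 times.

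Of 23 other inhibitors of serine and cysteine proteases, 10 were tested and 12 were under 1 TPM in every library. Among the 10, 3 were higher (Wfdc21, Cst7 and Cst3; background 35.3%), 6 lower (background 31.6%) and Serpinb6a not past the test, with a median log2 fold change of -0.30. The higher share was near that of all tested features. Wfdc17, a small protein with a fold like that of SLPI, fell from 1142 and 1116 to 715 and 725 TPM (adjusted p = 7.08e-06), and Serpinb10 fell from 219 and 222 to 136 and 138 TPM (adjusted p = 8.44e-06). Wfdc21, another of the WAP fold, rose from 49.3 and 55.9 to 126 and 130.3 TPM (adjusted p = 2.49e-05). Named after its values were seen, Cst7, which encodes cystatin F, an inhibitor of cathepsin C, rose from 61.7 and 54.7 to 85.5 and 80.8 TPM (log2 fold change 0.51, adjusted p = 8.55e-04).

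A list of genes for other granule contents, which also held membrane protein genes, had a median log2 fold change of -0.46. Of 15 tested, 5 were higher (background 35.3%), Ms4a3, Cd63 and Prss57 among them, and 10 lower (background 31.6%), so the higher share was near that of all tested features. Ms4a3, a membrane protein gene of granulocyte-monocyte progenitors and not a stored granule protein, rose from 87.4 and 87.5 to 388 and 393 TPM (2.15, adjusted p = 4.75e-07). Lyz2, the lysozyme gene, fell from 13128 and 13256 to 6193 and 6222 TPM (-1.09, adjusted p = 1.88e-06), and Hexa, a lysosomal hexosaminidase gene, from 304 and 304 to 151 and 153 TPM (adjusted p = 3.17e-06). The genes that fell include the lysosomal hydrolases Gusb, Man2b1, Ctsd and Ctsb, listed here after their values were seen, which most cells also make.

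Genes for granule transport, protein folding and inherited neutropenia were mostly lower, 11 of 15 (background 31.6%), with 1 higher (background 35.3%) and 3 not past the test (median log2 fold change -0.37). Rab27a, a GTPase of granule release, Ap3b1, a subunit of the adaptor that sorts elastase, and Lyst, a lysosome trafficking gene, fell by 0.43, 0.73 and 0.62 on the log2 scale. The gene that rose was G6pc3, a glucose-6-phosphatase (0.54), named after its value was seen. Of 8 genes for the synthesis of haem, the cofactor of myeloperoxidase, 5 were higher (background 35.3%), Uros and Cpox were lower (background 31.6%) and Alad did not pass the test (median 0.24). Fech and Ppox, enzymes of its final steps, rose by 0.64 and 0.47, and Urod, an enzyme of an earlier step, by 0.32. Cpox, which acts between Urod and Ppox, fell by 0.41 on the log2 scale (adjusted p = 0.0107). Of 10 other tested granule and lysosomal proteases of blood cells, 4 were higher (Mcpt8, Ctsl, Ctse and Cpa3; background 35.3%), 5 lower (background 31.6%) and Gzmm not past the test (median 0.03). Beside Mcpt8, the rule named Ctss and Ctsz, cathepsin genes that fell by 0.84 and 0.37.

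**Figure D5:**
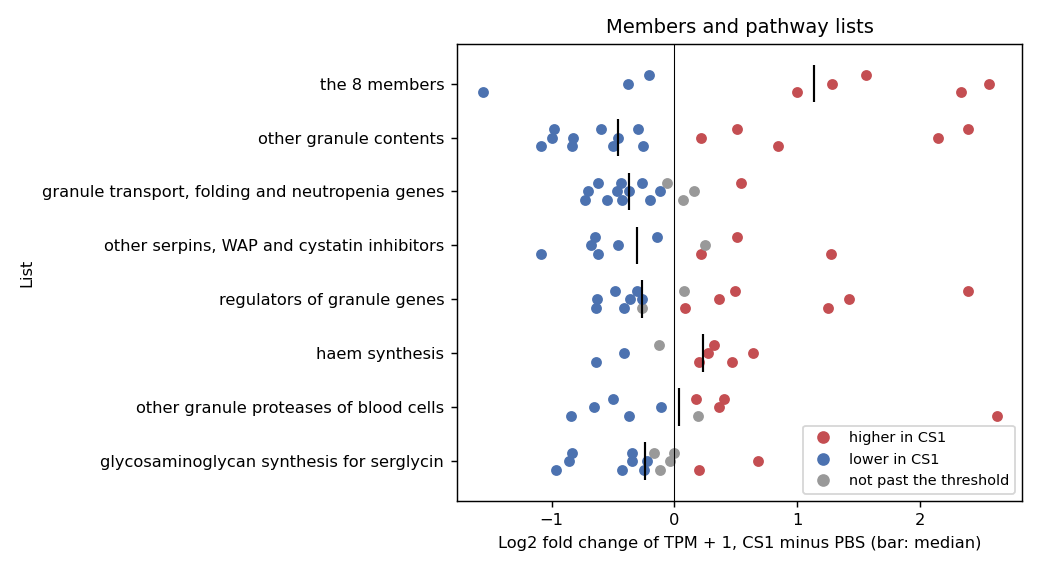
Log2 fold change of TPM + 1, CS1 minus PBS (horizontal), of the 8 members and of the tested genes of 7 pathway lists (vertical), 1 point per gene, with a bar at each median. The members' median is 1.14, while 5 of the 7 lists have medians below 0, from -0.46 to -0.24.

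The 5 features most like Elane, by Euclidean distance over the 4 libraries of log2(TPM + 1) centred on the PBS mean, were Camp (0.179), Cd63 (0.311), Mpo (0.331), Sept5 (0.356) and BC100530 (0.481), among 3588 other features averaging at least 50 TPM. Camp, which encodes the cathelicidin stored in secondary granules, went from 308 and 311 to 1686 and 1666 TPM. The 5 most like Ctsc were Cyp4f16 (0.0557), Slfn1 (0.0632), Tmem51 (0.0799), B4galt5 (0.114) and Clec4a3 (0.132). With 4 libraries in 2 tight groups, this distance mostly measures the size of the difference between the groups.

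Markers of other cells moved between the groups as well, and their part in the changes of the members was not tested. In these bulk libraries more cells of a type and more RNA per cell cannot be told apart. Genes of secondary and tertiary granules, made later in granulocyte development, summed to 8992 and 9076 TPM in PBS and 18118 and 17909.8 TPM in CS1. Chil3 alone gave 5332 and 5401 TPM of this in PBS and 10491 and 10225 TPM in CS1. Of the 10 genes, 7 were higher (background 35.3%) and Ltf, Mmp8 and Ltb4r1 lower (background 31.6%). Ltb4r1, though in this list, encodes a leukotriene receptor and not a granule protein. All 6 monocyte markers were lower (background 31.6%), Csf1r among them, with sums of 6633 and 6596 against 4554 and 4526 TPM. Of 8 mast cell and basophil markers, which matter because mast cells also express Ctsg and Srgn, Fcer1a, Cma1 and Tpsb2 were listed at 0.01 TPM in every library, and the summed level, 11.7 to 12.7 TPM in PBS and 54.5 to 57.6 TPM in CS1, was mostly Mcpt8. B cell markers, 4 of 5 lower (background 31.6%), summed to 55.3 and 53.7 TPM in PBS and 34.45 and 31.7 TPM in CS1. Of 8 T and NK cell markers 4 were tested and 2 were lower (background 31.6%), with sums of 11.5 and 10.6 against 5.86 and 6.23 TPM. Of 8 erythroid markers 3 were tested and Hbb-bs was higher (background 35.3%), with sums of 19.0 and 19.5 against 42.9 and 36.2 TPM. Hbb-bs was listed at 0.01 TPM in both PBS libraries and at 13.5 and 12.2 TPM in CS1. Hba-a1 and Hba-a2 were at 26.1 and 0.01 TPM in CS1 replicate 1 and at 0.01 and 19.3 TPM in CS1 replicate 2. No tested marker of eosinophils or megakaryocytes passed, and over the 4 libraries their sums were 7.74 to 11.0 TPM and 1.41 to 3.11 TPM. Of 4 general leukocyte markers, 2 were higher (background 35.3%) and 2 lower (background 31.6%), Ptprc among the lower. Kit, the stem cell factor receptor of progenitors and mast cells, rose from 5.25 and 4.33 to 16.8 and 18.1 TPM. Cd33 rose from 374 and 379 to 444 and 431 TPM (adjusted p = 5.34e-04). Itgam, which encodes CD11b, fell from 976 and 988 to 509 and 504 TPM. Kit, Cd33 and Itgam were named after their values were seen.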

How the data were processed

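Poly(A) RNA of CD45.2-enriched spleen cells was measured in 4 libraries, 2 from PBS-treated and 2 from CS1-treated mice, grouped by the sample titles. STAR, RSEM and mm10 are named, without versions or roles, in the submitters' processing notes, and the sources used here give neither the annotation nor any filter. The values the authors deposited were taken as TPM: the unit is not stated, and it was inferred from column sums of 977973 to 986345, decimals and the mention of RSEM. The lowest listed value is 0.01. TPM keeps no read depth, so no counting interval is given, and a share can rise because another falls.

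Values were transformed to log2(TPM + 1), which understates changes of low genes. Features that reached 1 TPM in 2 or more libraries were tested with limma 3.58.1 under R 4.3.3, using its variance trend, two-sided, with Benjamini-Hochberg adjustment over all 11866, and called at an adjusted p under 0.05. Adjusted p-values are from this test, except where an alternative fit is named beside them. The test was tried on simulated data in which far fewer features changed than were called here. Members, lists and tests were chosen with earlier results of these data known. Named genes are the 8 members, the 3 smallest p of each of 7 pathway lists, up to 3 neighbours per member within 100 kb, the 5 features most like Elane and Ctsc, Fto and Ptprc; genes outside this rule were named after their values were seen, mostly as members of a small count, and some members of the lists are not reported by name here. Levels between genes were compared in TPM, which is per length. Alternatives were other pseudocounts, filters, scalings (trimmed mean of M values computed directly on TPM, quantile normalization, rescaling without features of 1000 TPM or more), variance trend off, a replicate block and leaving out each library.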

Additional observations from a re-analysis of the deposited data

How the results depend on the processing

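Each member kept its direction under all 13 alternatives, and every call held except that of Slpi with no filter (log2 fold change -0.21, adjusted p = 0.0603, range 1.08e-04 to 0.0603). Across alternatives the log2 fold change ran from 2.53 to 2.63 for Elane, 2.30 to 2.40 for Mpo, 1.53 to 1.65 for Ctsg, 1.25 to 1.37 for Prtn3, 0.96 to 1.11 for Serpinb1a, -0.32 to -0.14 for Slpi, -0.41 to -0.27 for Srgn and -1.59 to -1.48 for Ctsc. The number of tested features called was 7949 in the reported fit and 5555 with no filter. The titles number the replicates, but deviations of libraries with the same number correlated at 0.02, so the numbers were not taken as pairs; with the replicate block 7750 features were called and no member's call changed. Leaving out each library gave 6676 to 6809 called features. The lone sample of a group is then assumed to vary like the other group. Wrnip1 changed sign when rescaled without features of 1000 TPM or more (0.013) and ranged from -0.182 to 0.0765 on leaving out a library, and Mir7678, listed at 0.01 and 34.8 TPM in the PBS libraries, ranged from -0.76 to 4.39. Supv3l1 lost its call in 8 of the 13 alternatives, and Dbndd2 without the filter; Dbndd2 had no value under the filter of 5 TPM. Without read counts, sampling noise could not be separated from other spread.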
